A study of Sus scrofa domesticus with 150 samples.

Results

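Hyaluronan is a long, unbranched sugar polymer of the space between cells, and the genes described here encode proteins that make it, bind it or break it down. They are the 3 hyaluronan synthases HAS1, HAS2 and HAS3, the receptors CD44 and HMMR, the binding proteins VCAN and TNFAIP6, and the degradation proteins CEMIP and HYAL2. Rows of the gene table were chosen by these symbols, and each of the 9 symbols matched 1 row of 30461. A count in any sample was recorded for 8 of the 9 genes and for 26905 genes in all.

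The synthases sit in the cell membrane and join UDP-glucuronic acid and UDP-N-acetylglucosamine into a chain that is extruded as it grows. Outside the cell the chain is held by receptors, by link-domain proteoglycans and by heavy chains that TNFAIP6 transfers onto it. It is cut by CEMIP and by hyaluronidases, and the fragments are finished in the lysosome. Skin holds much of the hyaluronan of the body, and wounds are known to fill with a hyaluronan-rich matrix before collagen replaces it.

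Messenger RNA was measured by poly-A RNA sequencing in 150 tissue samples from 6 domestic female pigs of a Yorkshire-mix breed whose age is not given in the sources used here. Each of the 6 animals carried 12 full-thickness round excisional wounds on the back under Telfa Clear and Tegaderm dressings, with no other agent than a topical antibiotic where a biopsy had been taken. The skin removed at wounding served as day 0 control (6 samples, 1 from each animal), and these were the whole excised tissue, whereas the wound samples were small biopsies. Each of 72 wounds was sampled a single time, at its edge and at its center, on 1 of 14 days, which with day 0 skin gives 29 states. Days 1, 3, 5, 7, 11, 15 and 21 came from animals 1 to 3 and days 2, 4, 6, 9, 13, 16 and 19 from animals 4 to 6, so that between these 2 series the day and the animals cannot be told apart. States held 6 samples up to day 13 (2 wounds from each of 3 animals) and 3 samples from day 15 on. Wounds of the same animal share that animal, and p-values over samples measure the spread between samples only.

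Samples held 13133379 to 24895572 counts assigned to genes, with medians of 18269295 in skin, 17455384 at the edge and 17883095 in the center. Values are given as CPM, the count scaled to a total of 1000000 counts per sample, and 3 counts correspond to 0.228 CPM at the lowest and 0.121 CPM at the highest depth. Markers of the sampled sites were present. On a mean log2(1 + CPM) scale, 6 keratinocyte markers averaged 12.1 in skin, 9.93 to 12.2 in the edge states and 3.10 to 11.5 in the center states, the highest of these on day 21. Single samples departed from their site. The lowest day 3 edge sample averaged 2.50, and the highest center samples of day 1 and day 3 averaged 10.6 and 11.3. The paper names day 2 and day 3 samples among those that deviate from their replicates. Fibroblast markers averaged 10.3 in skin and 9.01 to 12.1 in the wound states. Skeletal muscle markers averaged 0.93 in skin but reached 12.1 in single wound samples, and 8 libraries stood apart from their replicates. Without those 8 libraries every call on the members described below was kept, with 2 more between edge and center and 3 more between center and skin.

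HAS1 lies at bases 190503 to 200719 of contig LUXX01026751.1 (ENSSSCG00025030182, plus strand), and HAS2 at bases 632510 to 711993 of LUXX01000468.1 (ENSSSCG00025003687, plus strand). CD44 lies at bases 693751 to 789723 of LUXX01035113.1 (ENSSSCG00025033435, plus strand) and HMMR at bases 654465 to 695591 of LUXX01066435.1 (ENSSSCG00025031168, plus strand). The longest locus was that of VCAN, at bases 1213873 to 1665750 of LUXX01085380.1 (ENSSSCG00025059637, minus strand), and TNFAIP6 lies at bases 821396 to 840895 of LUXX01044864.1 (ENSSSCG00025036147, minus strand). CEMIP occupies bases 1593194 to 1760413 of LUXX01088386.1 (ENSSSCG00025052183, plus strand) and HYAL2 bases 358044 to 368142 of LUXX01086141.1 (ENSSSCG00025072085, plus strand). Positions are those of the deposited gene table, whose genome build is not named in the sources used here. HAS2, CD44, HMMR and CEMIP were named by a protein match in the table and the others by its name column. The table assigned an extracellular link domain, the fold that grips hyaluronan, to CD44, VCAN and TNFAIP6.

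HAS3, the synthase known from epidermis, was listed at 0 counts in all 150 samples. Its gene model (ENSSSCG00025048230) spans bases 491359 to 500473 of LUXX01060426.1 on the plus strand and has a length of 828 bases. It overlaps CHTF8 on the minus strand and TANGO6 on the plus strand. How reads in the overlap were assigned was not stated in the sources used here, so no level of HAS3 is given.

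**Figure D1:**
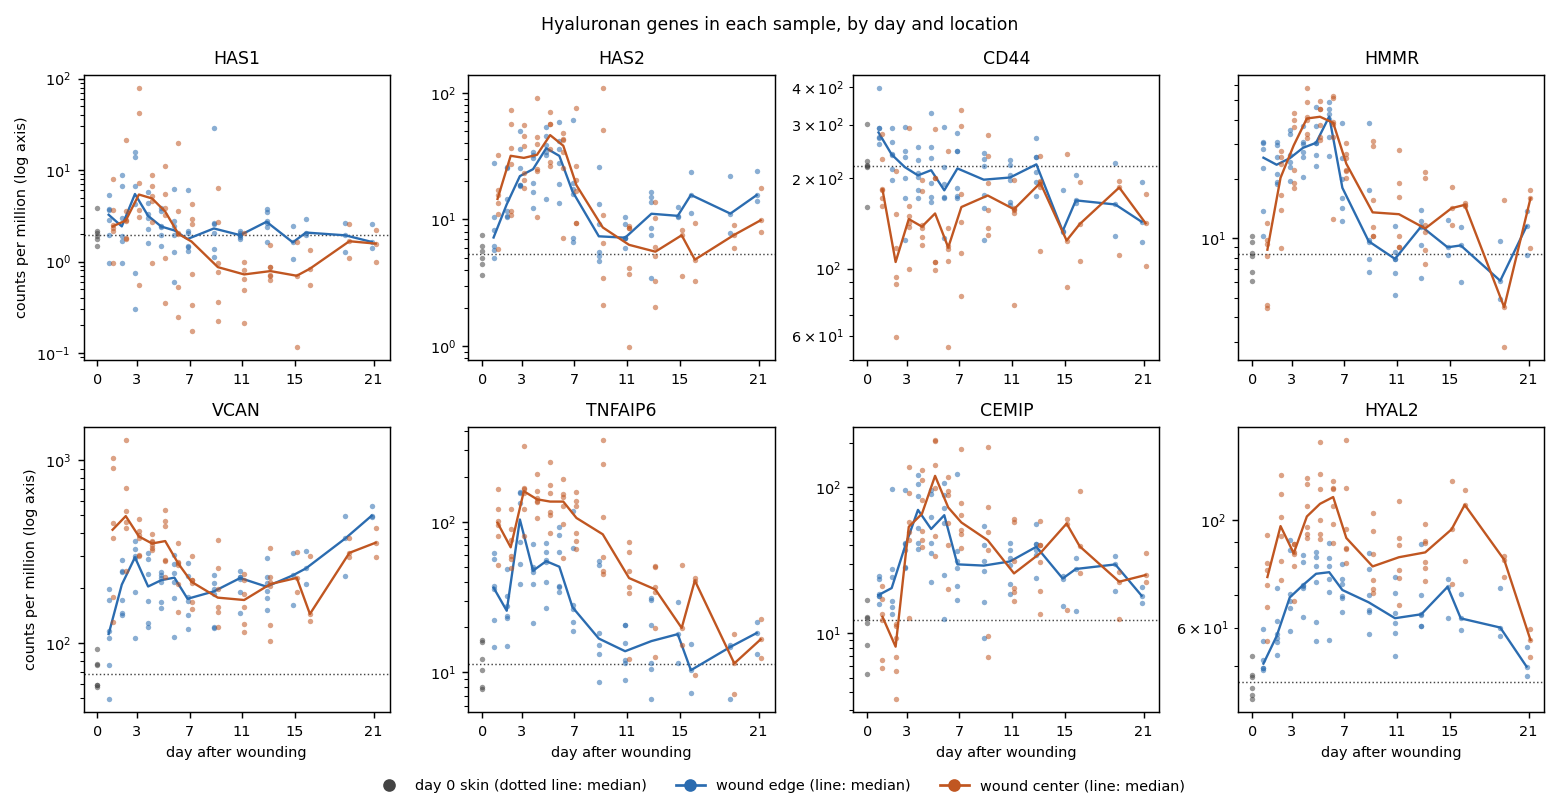
Each point is a sample, with the day after wounding on the x axis and CPM on a log y axis, for day 0 skin (gray, dotted line at its median), wound edge (blue) and wound center (orange), with lines through the medians. VCAN stayed above the skin samples at nearly all times, and the medians of HAS2, HMMR, TNFAIP6 and CEMIP were highest between days 3 and 6. State means spanned the narrowest ranges for HYAL2 (1.23 in log2(1 + CPM)) and CD44 (1.40).

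Divided by the gene length of the deposited table, the median level over 150 samples was 30.8 CPM per kilobase for CD44 and 30.7 for TNFAIP6. This allows a rough comparison of genes only, as the length of the transcripts present was not estimated. HYAL2 followed with 25.5, VCAN with 8.34, CEMIP with 6.07 and HMMR with 4.46 CPM per kilobase. The synthases were the lowest, with 1.71 CPM per kilobase for HAS2 and 0.975 for HAS1. HAS2 made up a median of 41.3% of the length-scaled HAS1 and HAS2 level in skin (23.0% to 52.1%). On day 5 its median share was 80.1% at the edge (49.1% to 88.8%) and 79.5% in the center (45.6% to 97.6%). Both day 5 ranges overlapped that of skin.

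Wound tissue was compared with day 0 skin to follow each gene through healing. Over 112 tests (8 genes on 14 days), members were higher in the center 72 times and lower 3 times, where 28.2% and 27.5% of all gene-day tests were called higher and lower (55.8% in either direction). At the edge they were higher 59 times, where 19.9% of all gene-day tests were called higher and 34.5% in either direction. None of the 112 edge tests found a member lower than skin by edgeR, 0 at an unadjusted p under 0.05 and 0 by DESeq2, where 14.6% of all gene-day tests were called lower. The median log2 fold change over the members' tests was 1.19 in the center and 0.86 at the edge. All of these contrasts share the same 6 skin samples. The kind of sample (whole excised skin or small biopsy) and wounding cannot be told apart in them. In such tissue, more cells of a type and more RNA per cell cannot be told apart.

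**Figure D2:**
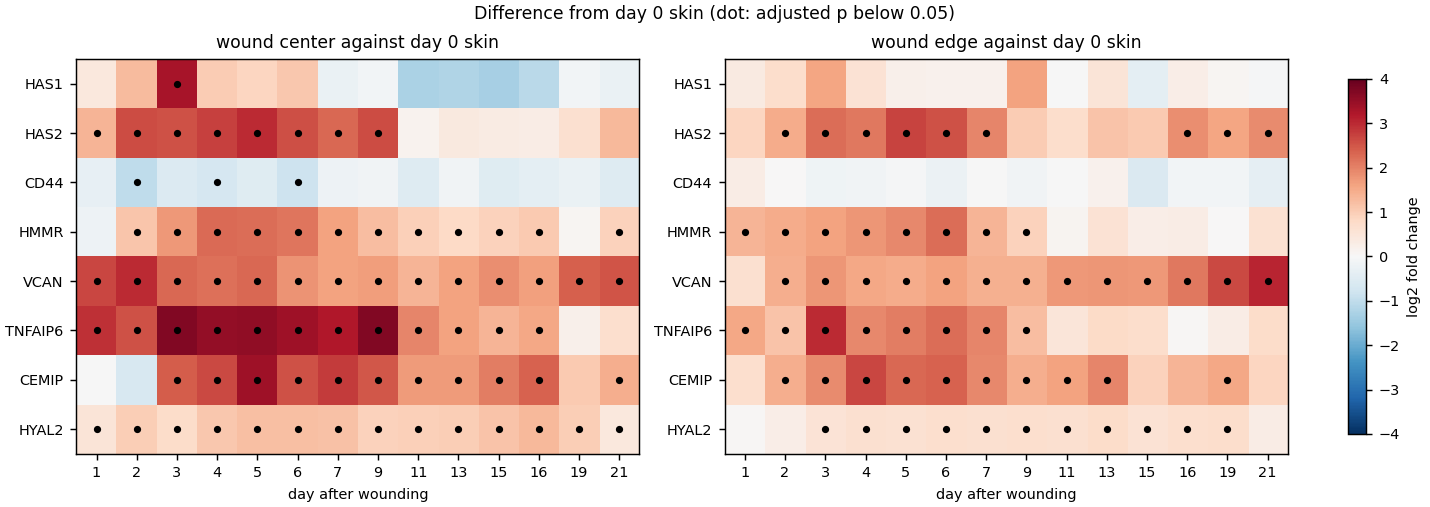
Color gives the log2 fold change of each of 8 genes (rows) on each of 14 days (columns) against day 0 skin, for the wound center (left) and edge (right), and a dot marks an adjusted p below 0.05. VCAN and HYAL2 carry a dot on all 14 days in the center, whereas HAS1 carries 1 dot there and none at the edge.

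Edge and center of the same wounds were compared within each day. Members were higher at the edge in 7 and higher in the center in 19 of 112 tests, where 12.5% and 11.0% of all gene-day tests were called (23.5% in either direction). With the wound as a block, which uses the pairing of the biopsies, these counts were 11 and 24. The median log2 fold change of edge over center was -0.23 over the members' tests. On day 3 and day 19 no gene at all was called (0 of 14581 and 0 of 14413), and on day 21 10 of 14621 genes were. A missing call on a member on those days is thus shared with nearly all genes.

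**Figure D3:**
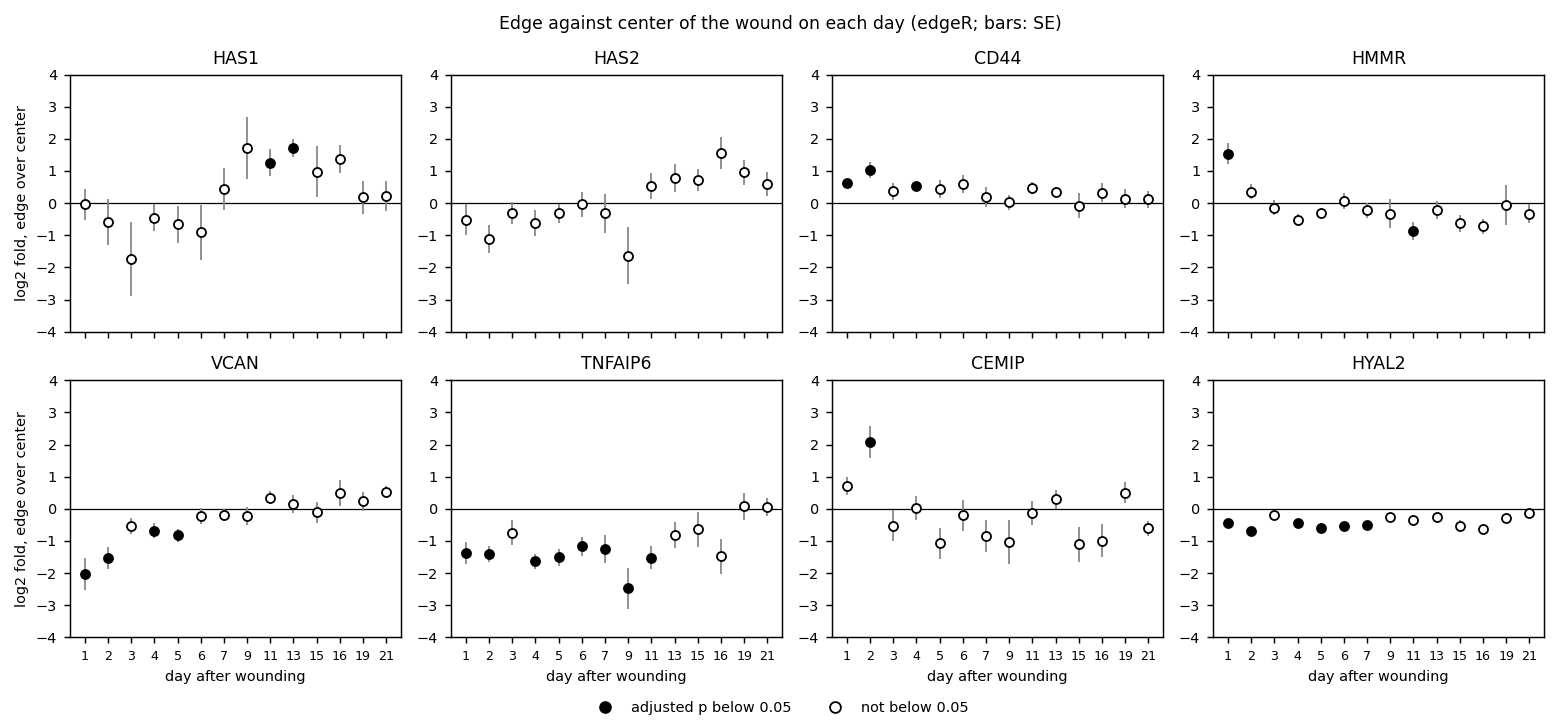
Points give the log2 fold change of edge over center on each of 14 days for 8 genes, bars give the SE, and filled points mark an adjusted p below 0.05. TNFAIP6 and HYAL2 lie below 0 on nearly all days, CD44 lies above 0 on 13 days, and HMMR, VCAN and CEMIP cross 0 with time.

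HAS1, a synthase known for a low enzymatic activity, was higher than skin in 1 of 28 comparisons, the center on day 3. Day 0 skin held 1.48, 1.96 and 3.83 CPM as the lowest, median and highest value. In the center on day 3 the same values were 0.548, 5.41 and 80.1 CPM, and at the edge 0.303, 5.48 and 15.9 CPM. Both day 3 ranges overlapped that of skin, and the samples of a state spread widely. The day 3 center exceeded skin by 3.30 ± 0.77 on the log2 scale (SE, edgeR, adjusted p = 0.000114), and the value lay between 2.57 and 3.76 when each animal was left out. At the edge no day passed the test by edgeR (lowest adjusted p = 0.0666), while 2 days had an unadjusted p under 0.05 and DESeq2 called 0. With counts summed per animal, days 3 and 9 at the edge passed (adjusted p = 0.0379 and 0.0448).

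On days 11 and 13 HAS1 was called higher at the edge than in the center. On day 13 the edge held 1.63, 2.72 and 3.72 CPM as lowest, median and highest and the center 0.635, 0.786 and 1.54 CPM. All 6 edge samples were above all 6 center samples. The difference was 1.72 ± 0.28 (log2, SE, edgeR, adjusted p = 0.000834). Day 11 gave 1.26 ± 0.41 (edgeR, adjusted p = 0.0268), with edge samples between 1.76 and 2.15 CPM and center samples between 0.212 and 2.05 CPM, so that the ranges overlapped. That call was lost when replicate 2, 4, 5 or 6 was left out and with counts summed per animal (adjusted p = 0.0553). With all samples in 1 fit neither day passed (edgeR, adjusted p = 0.191 on day 11 and 0.0824 on day 13). The lowest state was the center on day 15, with 1.63, 0.699 and 0.115 CPM, and the highest the center on day 3. Adipocyte markers averaged 5.94 in skin, 4.45 to 8.12 at the edge and 3.83 to 10.2 in the center, HAS1 correlated with them at r = 0.664 over the 29 states, and their part in the HAS1 levels was not tested.

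HAS2, the synthase known as the main source of hyaluronan in fibroblasts, was higher than skin in the center on 8 days, from day 1 to day 9, and at the edge on 9 days. Skin held 3.65, 5.32 and 7.47 CPM. The center on day 5, the highest state, held 26.3, 46.3 and 71.1 CPM, and the edge on that day 14.6, 36.5 and 53.2 CPM. Neither range overlapped that of skin. The day 1 center call was lost without animal 1 (log2 0.99, adjusted p = 0.15) or animal 2 (adjusted p = 0.105). On day 5 the log2 fold change was 3.00 ± 0.55 in the center (SE, edgeR, adjusted p = 1.13e-06) and 2.69 ± 0.55 at the edge (edgeR, adjusted p = 2.43e-05).

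In the fit of all samples, HAS2 in the center was not called different from skin from day 11 on. On day 9 the center ranged from 2.10 to 109.9 CPM with a median of 8.64 CPM. The call on that day (2.62 ± 0.55, edgeR, adjusted p = 1.56e-05) was lost without animal 5, where the log2 fold change was 0.19 with an adjusted p of 0.789. Day 11, the lowest state, held 0.979, 6.30 and 8.89 CPM in the center, which overlapped the range of skin. At the edge HAS2 was called higher than skin on days 16, 19 and 21 (log2 1.57 to 1.88, edgeR, adjusted p = 0.0215, 0.0411 and 0.0183). The edge log2 fold change was positive on all 14 days. With each state and day 0 fitted alone, edge days 11, 13 and 15 also passed (edgeR, adjusted p = 0.0225, 0.0124 and 0.019). Center day 21 passed in that setting (edgeR, adjusted p = 0.00737) and with counts summed per animal (adjusted p = 0.0191). With the animal as a block the edge calls numbered 6 (days 3 to 7 and 21), as days 2, 16 and 19 were lost. The day 21 call was in turn lost without animal 2 (edgeR, adjusted p = 0.081) or animal 3 (adjusted p = 0.17).

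In the per-day edgeR fits without a block, no day separated HAS2 at the edge from the center. There 2 days had an unadjusted p under 0.05 toward the edge and 1 toward the center, and DESeq2 called 1 in each direction. With all samples in 1 fit, day 9 passed toward the center (log2 -1.62, edgeR, adjusted p = 0.0109). The lowest unadjusted p of the per-day fits was on day 16, when the edge held 15.6, 23.6 and 11.3 CPM and the center 9.29, 4.81 and 3.29 CPM. The 3 edge samples were all above the 3 center samples. The difference was 1.56 ± 0.49 (log2, SE, edgeR, adjusted p = 0.0882), and 1.63 with the wound as a block (adjusted p = 0.0386). The log2 differences were negative on all 8 days from 1 to 9 and positive on all 6 days from 11 to 21.

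CD44, the main surface receptor for hyaluronan, was not called different from skin at the edge and was lower than skin in the center on 3 days. Skin held 160.6, 219.5 and 302 CPM. The edge on day 1, the highest state, held 259, 283 and 398 CPM, within the range of skin for 5 of 6 samples. At the edge no day passed the test by edgeR (lowest adjusted p = 0.275), with 0 days at an unadjusted p under 0.05 and 0 called by DESeq2. In the center the log2 fold change was negative on all 14 days. It passed on days 2 (-1.01 ± 0.25, edgeR, adjusted p = 0.000347), 4 (-0.68) and 6 (-0.83), all days of animals 4 to 6, and with the animal as a block on days 2, 3, 5, 6 and 11. The day 4 call was lost without animal 5 (edgeR, adjusted p = 0.0775) and the day 6 call without animal 6 (adjusted p = 0.0585).

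Within the wound CD44 was higher at the edge. The edge on day 2 held 197, 239 and 294 CPM, and the center, the lowest state, 59.5, 105 and 210.2 CPM. The ranges overlapped only slightly, and the edge was higher in all 6 wounds. The difference was 1.03 ± 0.24 (log2, SE, edgeR, adjusted p = 0.00551), with 0.62 on day 1 and 0.52 on day 4 also past the test. Keratinocytes carry much CD44, and their markers were at a mean of 3.10 to 11.5 in the center against 9.93 to 12.2 at the edge. Over the 29 states CD44 correlated with the keratinocyte markers at r = 0.559, with the endothelial markers at r = -0.614 and with the fibroblast markers at r = -0.604. The part of any of these in the difference was not tested. CD44 overlaps SLC1A2 on the other strand, which averaged 65.3 counts per sample.

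HMMR, a receptor for hyaluronan that also binds the mitotic spindle, was higher than skin at the edge from day 1 to day 9 and in the center from day 2 to day 16 and on day 21. Skin held 6.12, 8.31 and 10.3 CPM. The center on day 4 held 32.3, 40.5 and 58.2 CPM and the edge on day 6 held 26.0, 41.5 and 49.0 CPM, both entirely above skin. The log2 fold changes were 2.27 ± 0.31 (SE, edgeR, adjusted p = 1.53e-10) and 2.22 ± 0.31 (edgeR, adjusted p = 9.25e-10). The lowest state was the center on day 19 with 4.48, 15.6 and 2.81 CPM, or the center on day 1 once TMM factors were applied. With the animal as a block, center days 13 and 21 (edgeR, adjusted p = 0.0512 and 0.0576) and edge day 9 (adjusted p = 0.0763) were lost, which left 10 and 7 calls. Leaving out 1 animal ended the center calls of days 11 (animal 1), 13 (animal 4), 15 (animal 1, 3 or 4) and 21 (animal 2, 3 or 4), and the edge call of day 9 fell to a log2 of 0.29 without animal 5.

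The edge led on day 1 and the center on day 11. On day 1 HMMR measured 10.3, 25.6 and 30.8 CPM at the edge and 4.45, 8.77 and 11.9 CPM in the center, with 1 overlapping stretch at 10.3 to 11.9 CPM. The edge was higher in all 6 wounds, by 1.54 ± 0.33 (log2, SE, edgeR, adjusted p = 0.00277). By day 11 the edge held 5.16, 7.88 and 11.6 CPM and the center 9.01, 13.3 and 28.1 CPM, with the center higher in all 6 wounds (-0.87 ± 0.28, edgeR, adjusted p = 0.0264). This call was lost when replicate 1 or 2 was left out and with counts summed per animal (adjusted p = 0.0594). Markers of dividing cells averaged 4.05 in skin, 3.83 to 6.03 at the edge and 2.83 to 6.14 in the center, and HMMR followed them over the 29 states (r = 0.918). The part of cell division in the HMMR differences was not tested.

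VCAN encodes versican, a large proteoglycan whose link domains bind hyaluronan, and it had the most calls against skin of the 8 members. It exceeded skin on all 14 days in the center (log2 1.37 to 2.99) and on 13 days at the edge, all but day 1. Skin held 58.0, 67.7 and 93.1 CPM. The center on day 2 held 249, 495 and 1297 CPM, and the edge on day 21 held 492, 498 and 563 CPM. All of these samples were above all skin samples. The log2 fold changes were 2.99 ± 0.32 (SE, edgeR, adjusted p = 2.01e-14) and 3.04 ± 0.36 (edgeR, adjusted p = 9.91e-12).

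VCAN was higher in the center than at the edge early in healing. On day 1 the edge held 49.4, 112 and 199 CPM and the center 130.4, 417 and 1029 CPM, and on day 2 the edge held 143, 209 and 286 CPM. The center was higher in all 6 wounds on each of days 1 to 5. The edge fell below the center by 2.03 on day 1, by 1.54 ± 0.34 on day 2 (log2, SE, edgeR, adjusted p = 0.00351), by 0.69 on day 4 and by 0.82 on day 5. The day 4 call was lost when replicate 2, 3, 4 or 6 was left out. On day 21 the edge held 492, 498 and 563 CPM and the center 428, 355 and 297 CPM, without overlap, but the difference of 0.52 ± 0.19 did not pass (edgeR, adjusted p = 0.50).

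TNFAIP6, also called TSG-6, transfers heavy chains onto hyaluronan, and it had the most calls between edge and center of the 8 members. Skin held 7.82, 11.3 and 16.5 CPM. The center on day 3, the highest state, held 80.5, 160.1 and 319 CPM, and the edge on that day 38.9, 104 and 157 CPM. Every day 3 sample was above every skin sample. The log2 fold change was 3.72 ± 0.45 in the center (SE, edgeR, adjusted p = 3.5e-12) and 2.99 ± 0.43 at the edge (edgeR, adjusted p = 6.37e-09). TNFAIP6 was higher than skin on 12 days in the center, from day 1 to day 16, and on 8 days at the edge, from day 1 to day 9. The day 15 center call was lost without animal 3, and with the animal as a block 11 center and 6 edge calls were made.

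The center exceeded the edge on 8 days (1, 2, 4, 5, 6, 7, 9 and 11), by 1.17 to 2.48 on the log2 scale. On day 4 the edge held 21.4, 47.5 and 70.9 CPM and the center 106, 141 and 208 CPM, without overlap. The difference was -1.63 ± 0.24 (log2, SE, edgeR, adjusted p = 0.000164). The largest difference, -2.48 ± 0.64 on day 9 (edgeR, adjusted p = 0.0107), set edge samples of 8.65, 16.8 and 55.2 CPM against center samples of 45.3, 82.8 and 353 CPM. With counts summed per animal the day 9 value was -2.46 and did not pass (edgeR, adjusted p = 0.112). The day 6 call was lost without replicate 1 or 4 and the day 7 call without any of replicates 1, 3, 4, 5 and 6. From day 19 on the levels at both sites were near those of skin, and the lowest state was the edge on day 16 with 7.29, 10.4 and 15.4 CPM, or day 0 skin once TMM factors were applied. Macrophage and monocyte markers averaged 5.06 in skin, 5.63 to 7.64 at the edge and 6.25 to 7.95 in the center, and TNFAIP6 followed them over the 29 states (r = 0.843), a relation whose part in the difference was not tested.

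CEMIP, which binds hyaluronan and cuts it outside the lysosome, was called higher than skin in the center on days 3 to 16 and on day 21. Higher center calls began on day 1 for HAS2, VCAN, TNFAIP6 and HYAL2, on day 2 for HMMR and on day 3 for HAS1. The timing of the genes was not compared by a test. Skin held 5.28, 12.3 and 17.0 CPM. The center was called on 11 days, and on day 5, the highest state, held 34.1, 119.4 and 211 CPM, all above skin, for a log2 fold change of 3.38 ± 0.53 (SE, edgeR, adjusted p = 1.34e-08). The day 21 center call was lost with the animal as a block (adjusted p = 0.0813), which left 10, and without animal 1, 2, 3 or 4. At the edge CEMIP was higher on 10 days from day 2 on, with 37.6, 69.9 and 121 CPM on day 4 (2.68 ± 0.51, edgeR, adjusted p = 8.06e-06). The day 2 edge call was lost without animal 5 (log2 0.59), and with the animal as a block 7 edge calls were made. CEMIP correlated with the markers of dividing cells at r = 0.782 over the 29 states, and their part in its levels was not tested.

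On day 2 CEMIP differed between edge and center. The edge held 13.5, 20.4 and 96.9 CPM and the center, the lowest state, 3.55, 8.13 and 11.6 CPM. All edge samples were above all center samples, and the difference was 2.09 ± 0.50 (log2, SE, edgeR, adjusted p = 0.00566). No other day passed without the block. With the wound as a block day 1 was also called higher at the edge and day 7 higher in the center.

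HYAL2, a hyaluronidase anchored at the cell surface, was higher than skin by small but regular amounts. Skin held 42.6, 46.2 and 52.4 CPM. The center on day 5 held 91.6, 108 and 145 CPM, and the center on day 16, the highest state once TMM factors were applied, 82.4, 107.6 and 115.6 CPM. Both lay above all skin samples. The center was called on all 14 days, by 0.43 on day 21 to 1.31 on day 16, and on day 5 the log2 fold change was 1.20 ± 0.12 (SE, edgeR, adjusted p = 1.9e-16). The day 21 center call was lost without animal 3 and with the animal as a block. The edge was called on 11 days, from day 3 to day 19, by 0.55 to 0.73.

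HYAL2 had a negative log2 difference of edge over center on all 14 days, and it passed the test on days 1, 2, 4, 5, 6 and 7 (log2 -0.70 to -0.44). On day 2 the edge held 52.7, 57.6 and 72.3 CPM and the center 75.2, 97.2 and 124 CPM. No edge sample reached the lowest center sample. The difference was -0.70 ± 0.13 (log2, SE, edgeR, adjusted p = 0.00115). The day 4 call was lost without replicate 1, 2, 3 or 6 and with counts summed per animal. Endothelial markers averaged 5.72 in skin, 5.55 to 7.18 at the edge and 6.81 to 7.70 in the center. HYAL2 followed them over the 29 states (r = 0.900) and ran against the keratinocyte markers (r = -0.808), and the part of either in the difference was not tested.

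To use the animal as the unit, edge minus center was averaged over the wounds of each of the 6 animals on the log2(1 + CPM) scale and tested by exact sign flips. The smallest p that 6 animals allow is 0.0312, and 29.3% of 14081 genes were called higher at the edge and 37.0% higher in the center. Of the 8 members, 5 had this p, with an adjusted p of 0.0471. TNFAIP6 differed by -1.11 ± 0.19 (SD, n = 6 animals, exact test) and was higher in the center of 68 of 72 wounds. HYAL2 differed by -0.43 ± 0.07 (68 of 72 wounds), VCAN by -0.33 ± 0.14 (51 of 72), CD44 by 0.39 ± 0.12 (higher at the edge of 62 of 72) and HAS1 by 0.21 ± 0.14 (46 of 72). HMMR differed by -0.15 ± 0.12 (exact p = 0.0625, adjusted p = 0.0845), HAS2 by 0.10 ± 0.21 (exact p = 0.281, adjusted p = 0.325) and CEMIP by -0.16 ± 0.43 (exact p = 0.375, adjusted p = 0.421).

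**Figure D4:**
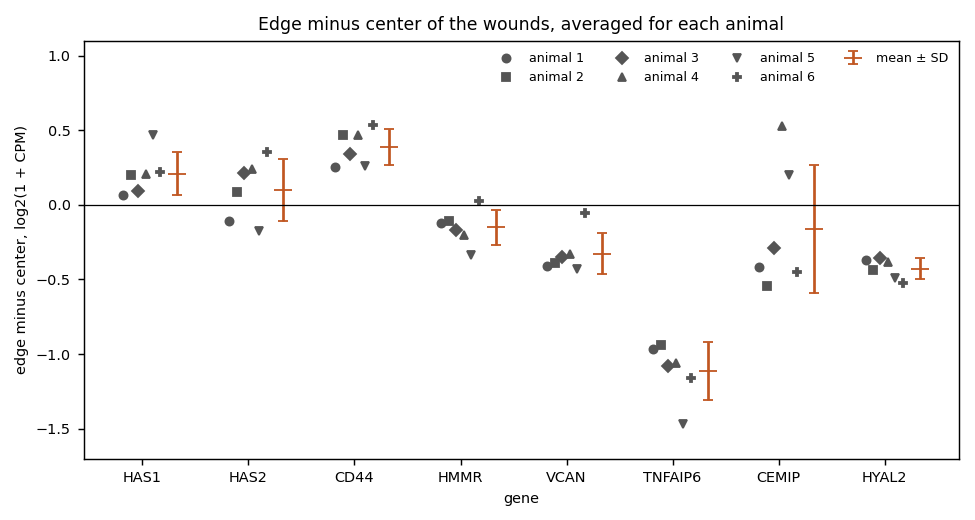
For 8 genes on the x axis, each gray symbol is the edge minus center difference in log2(1 + CPM) averaged over the wounds of 1 of 6 animals, and the orange bar is the mean ± SD. All 6 animals lie below 0 for TNFAIP6, HYAL2 and VCAN and above 0 for CD44 and HAS1, and they lie on both sides of 0 for HAS2 and CEMIP.

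Whether the edge-to-center difference changed with the day was tested as an interaction within wounds, which called 39.2% of 17734 genes. It passed for 6 of 8 members: VCAN (edgeR, adjusted p = 3.31e-05), HMMR (9.36e-05), TNFAIP6 (0.00168), CEMIP (0.00428), HAS1 (0.0126) and HAS2 (0.0284). CD44 (edgeR, adjusted p = 0.123) and HYAL2 (0.0801) did not pass. Without the wound as a block, 3 members passed, HMMR, VCAN and CEMIP.

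The change over days was tested separately for each location and each set of 3 animals. At the edge 7 of 8 members changed in animals 1 to 3, all but HAS1, and 6 in animals 4 to 6, all but HAS1 and CD44, where 66.4% and 40.3% of all genes were called. In the center 7 changed in animals 1 to 3, all but CD44, and 6 in animals 4 to 6, all but HAS1 and HYAL2, where 71.8% and 52.1% of all genes were called. HAS2, HMMR, VCAN, TNFAIP6 and CEMIP were called in all 4 tests, but of these only HMMR was also called in all 4 when each animal was left out in turn. At the edge of animals 4 to 6 the count of 6 became 1 without animal 4 (HMMR), 4 without animal 5 and 3 without animal 6, and VCAN was lost in each case. CEMIP was lost there without animal 4 or 6 and without the animal as a covariate (edgeR, adjusted p = 0.104), and at the edge of animals 1 to 3 the count of 7 became 4 without animal 3. In the order of the 29 states by mean level, no member had a pair of neighbouring states whose ranges did not overlap.

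The members' state means were related to each other to different degrees. As a description over 29 states, which share animals and libraries across genes, HMMR correlated with TNFAIP6 at r = 0.760, with HAS2 at 0.723 and with CEMIP at 0.682. HAS2 correlated with TNFAIP6 at r = 0.671 and with HAS1 at 0.661, and CD44 ran against VCAN at r = -0.601. The genes whose pattern was most like that of HMMR were GEN1 (r = 0.982), NUF2 (0.981) and SMC4 (0.974), of which NUF2 and SMC4 are known from mitosis. For TNFAIP6 they were EDNRB (0.969), SEC24A (0.965) and SLCO4A1 (0.965), and for HYAL2 EXOC3L2 (0.970), LHX6 (0.946) and SOX18 (0.942), the last a factor of blood and lymph vessels. CEMIP was followed by PIMREG (0.874), HMGB3 (0.863) and SLC35A2 (0.856), and VCAN by ALDH1L2 (0.867), OSBPL6 (0.849) and ROR1 (0.837). HAS2 was closest to SRP54 (0.884), YME1L1 (0.873) and YTHDC2 (0.857), HAS1 to PTGIS (0.856), BAG3 (0.847) and HADHB (0.845), and CD44 to MBD2 (0.827), SLC7A1 (0.827) and PLP2 (0.823).

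Other genes of the pathway were read from a list of 41, of which 36 were tested against skin. Over 504 tests they were higher in the center 317 times (62.9%, where 28.2% of all gene-day tests were called higher) and lower 47 times (9.33%, against 27.5%). At the edge they were higher 244 times (48.4%, against 19.9%) and lower 17 times (3.37%, against 14.6%). Between edge and center, 13 of 408 tests were higher at the edge (3.19%, against 12.5%) and 129 higher in the center (31.6%, against 11.0%).

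The 7 enzymes that supply the UDP-sugars for the synthases were higher than skin in 89 of 98 center tests (90.8%, against 28.2% of all tests). At the edge they were higher in 78 tests (79.6%, against 19.9%). GFPT2, which feeds the hexosamine route, had medians of 10.4 CPM in skin, 21.4 at the edge and 47.4 in the center and the largest mean log2 fold change of this group (2.00 in the center), and UAP1 the smallest (0.65). Of the exoglycosidases that finish hyaluronan fragments in the lysosome, GUSB had medians of 40.5, 114 and 164 CPM. The 3 genes of the group were higher in 41 of 42 center tests (97.6%, against 28.2%) and in 33 edge tests (78.6%, against 19.9%).

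Among the other hyaluronidases, CEMIP2, a cell-surface protein related to CEMIP, had medians of 22.8 CPM in skin, 93.0 at the edge and 140.3 in the center. The group of 5, of which 4 were tested, was higher in 19 (33.9%, near the 28.2% of all tests) and lower in 8 (14.3%, against 27.5%) of 56 center tests. All 8 lower calls were those of HYAL4, which had a median of 0.29 CPM in skin and was at 0 in 45 of 72 center samples. CEMIP2 had 14 of the 19 higher calls. Other receptors were higher in 67 (79.8%, against 28.2%) and lower in 1 (1.19%, against 27.5%) of 84 center tests. They were higher in 43 edge tests (51.2%, against 19.9%). TLR2, which senses hyaluronan fragments among other ligands, had medians of 9.50, 33.5 and 67.4 CPM.

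Of the other aggregating proteoglycans and link proteins, 15 of 70 center tests were higher (21.4%, against 28.2% of all tests) and 31 lower (44.3%, against 27.5%). The link protein HAPLN1 had 0.888 to 5.52 CPM in skin and was at 0 in 56 of 72 center samples, whereas HAPLN4 had medians of 10.6 CPM in skin, 36.4 at the edge and 64.3 in the center. ACAN, the cartilage proteoglycan aggrecan, had medians of 2.57 CPM at the edge and 0.322 CPM in the center. In the center 10 of 72 samples were at 0. It passed the filter for edge against center on 10 days, and a gene can pass through the group where it is high. On 8 of these days it was called higher at the edge, a count given as a description only. Of all gene-day tests, 12.5% were called higher at the edge. For heavy chains, bikunin and pentraxin 3, 21 of 70 center tests were higher (30.0%, near the 28.2% of all tests) and 7 lower (below the 27.5% of all tests). The heavy chain genes ITIH1 and ITIH2 were at 0 in 60 and 38 of 72 center samples and were not tested. ITIH3 was called on 0 days. Higher calls were mostly those of ITIH4 (12 days) and PTX3 (8 days), and lower calls those of AMBP (4 days) and ITIH5 (3 days). PTX3 had medians of 6.18 CPM in skin, 18.3 at the edge and 29.7 in the center, and AMBP was at 0 in 27 of 72 center samples. Proteases that cut versican were higher in 65 of 84 center tests (77.4%, against 28.2%) and in 44 edge tests (52.4%, against 19.9%). ADAMTS4 had medians of 3.44 CPM in skin, 51.8 at the edge and 108 in the center.

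**Figure D5:**
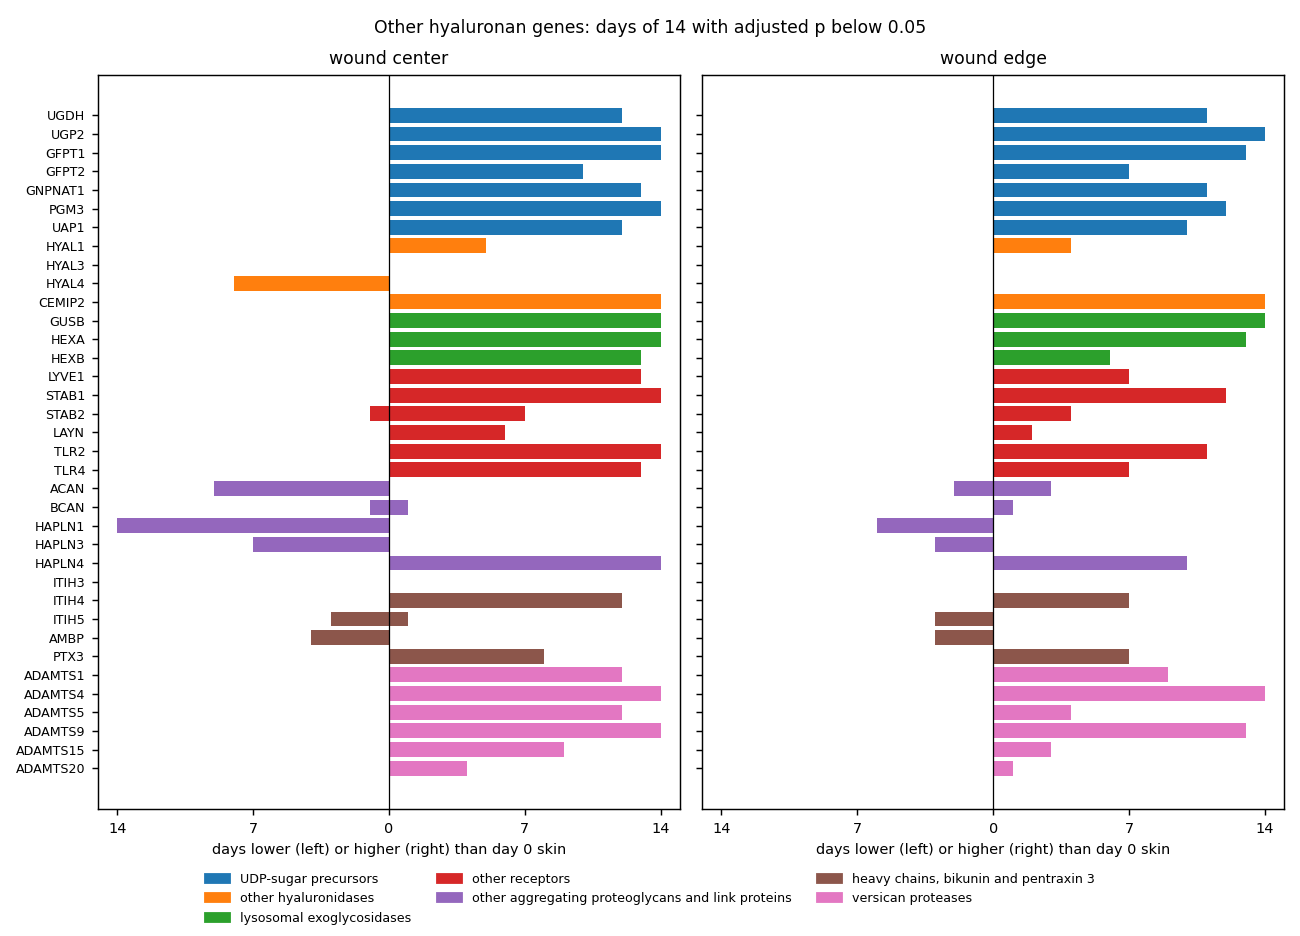
Bars give, for each other gene of the pathway (rows, colored by role), on how many of 14 days it was higher (right of 0) or lower (left of 0) than day 0 skin at an adjusted p below 0.05, in the wound center (left panel) and at the edge (right panel). Bars of the UDP-sugar, exoglycosidase and versican protease genes point to the right, while those of the link proteins point to both sides.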

How the data were processed

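The authors deposited a table of gene counts, unnormalized and assigned to 30461 genes on 2337 contigs by the sequencing provider, from poly-A selected, paired-end libraries. The aligner, the counter and the genome build are not given in the sources used here, and the FPKM values of the same samples were not used. All sample columns were mapped to labels by title. The members and lists were chosen with earlier results of these data known.

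Tests used edgeR 4.0.16 (R 4.3.3) with TMM factors, genes kept by filterByExpr (minimum count 10, minimum total 15) and the quasi-likelihood F test, with Benjamini-Hochberg adjustment over all genes tested and a threshold of 0.05. Edge and center were compared on each day's samples alone (14166 to 14652 genes), and all states with day 0 skin in 1 fit of 150 samples (17916 genes). Change over days was tested within location and animal set with the animal as a covariate. The interaction of location and day had the wound as a block, with the dispersion trend taken from the 29-state design. The sign-flip test ran on 14081 genes with a mean of at least 1 CPM. SE is the log2 fold change divided by the square root of F. Single-sample levels are CPM of library totals, and log2 values add a pseudocount of 1.

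Edge and center of a wound are paired by the labels: the deviations of the 2 samples from their state means correlated at a mean r of 0.27 over 72 wounds, above 0.1 in 58. No 2 of 339 replicate pairs held identical values. The named genes are all 9 members, for each the day with the lowest p between edge and center and the states with the highest and lowest mean, and the 3 genes most like it over the 29 states. Of the other pathway genes, those with the largest and smallest mean change in the center in each role were candidates for naming. ACAN, ITIH1, ITIH2, ITIH3, ITIH4 and ITIH5 were named outside this rule. Scripts were tested on simulated counts. Floors of 3 counts cover counting error only. Alternatives were other scalings, filters and tools, blocks, sums per animal, 1 fit of all samples, and leaving out each replicate or animal.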

Additional observations from a re-analysis of the deposited data

Results flagged for a closer look

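In 12 of 168 groups of 6 samples, 1 sample stood apart from the other 5 by Dixon's ratio (critical value 0.625), where chance flags about 1 in 20 groups, or 8.4. Of these, 5 concerned HAS1. In day 0 skin animal 6 held 3.83 CPM against 1.48 to 2.17 CPM (ratio 0.636), and in the day 2 center wound L of animal 6 held 21.6 against 1.77 to 3.55 CPM (0.764). At the day 7 edge wound H of animal 1 held 6.12 against 1.32 to 2.17 CPM (0.721), and at the day 9 edge wound E of animal 5 held 29.1 against 1.11 to 2.64 CPM (0.795). In the day 13 center wound C of animal 6 held 1.54 against 0.635 to 0.873 CPM (0.69).

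Wound B of animal 6 was low in the day 6 center for both HAS2 (7.19 against 25.5 to 48.2 CPM, ratio 0.656) and HMMR (12.6 against 32.6 to 52.9 CPM, ratio 0.656). In that sample the skeletal muscle markers averaged 12.1 on the log2(1 + CPM) scale, and it is 1 of the 8 libraries whose removal kept every call on the members. CD44 was high at the day 1 edge of wound A of animal 1 (398 against 259 to 293 CPM, 0.716). It was low in the day 11 center of wound C of animal 3 (75.9 against 153 to 196 CPM, 0.737) and in the day 13 center of wound C of animal 4 (115 against 186 to 237 CPM, 0.67). CEMIP was high at the day 2 edge of wound L of animal 5 (96.9 against 13.5 to 27.8 CPM, 0.642) and at the day 3 edge of wound F of animal 3 (94.9 against 28.0 to 41.6 CPM, 0.68).

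The difference between edge and center differed between days for 6 members by the interaction test of edgeR, with adjusted p of 0.0126 for HAS1, 0.0284 for HAS2, 9.36e-05 for HMMR, 3.31e-05 for VCAN, 0.00168 for TNFAIP6 and 0.00428 for CEMIP. The days compared come from both animal sets, so that day and animal set cannot be fully told apart.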

How the results depend on the processing

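No call on a member changed its direction under any alternative run. The 7 tests with a member higher at the edge than in the center became 4 with all samples in 1 fit, 11 with the wound as a replicate block and 6 to 8 when each replicate was left out, and the 19 higher in the center became 16 to 18 when each replicate was left out, 22 with all samples in 1 fit and 24 with the wound as a block. DESeq2 called 10 and 26. The 3 center tests below skin became 6 with median-of-ratios factors, with DESeq2 or without the 8 libraries standing apart, 5 with the animal as a replicate block, 7 with each state and day 0 fitted alone, and 2 to 6 when each animal was left out (6 without animal 1). Higher calls against skin ranged from 67 to 72 in the center and from 53 to 59 at the edge when each animal was left out. Across all genes with no filter, 8.23% and 6.34% of tests were called higher at the edge and in the center, and 13.1% higher and 9.02% lower at the edge than in skin. Leaving out each replicate or animal gave shares of 10.2% to 11.7% and 7.52% to 9.33% between edge and center, 24.7% to 26.6% and 24.8% to 26.6% for the center against skin, and 16.4% to 18.1% and 11.9% to 12.7% for the edge against skin. The interaction called 3 members with no replicate block, 2 in animals 1 to 3 alone and 4 to 6 when each animal was left out. Of the tests of change over days, the edge in animals 1 to 3 kept 4 to 7 members (4 without animal 3), the edge in animals 4 to 6 kept 1 to 4 (1 without animal 4, 3 without animal 6), the center in animals 1 to 3 kept 6 to 6, and the center in animals 4 to 6 kept 4 to 6. With no filter on low values, 0 of all genes passed the adjusted sign-flip test over animals, by construction of more genes at the same smallest p.

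Of the calls on members, 20 of 26 between edge and center, 64 of 75 between center and skin and 47 of 59 between edge and skin held under each leave-out. Day 9 rested most on animal 5: without it the log2 fold change against skin was 0.19 for HAS2 in the center and 0.29 for HMMR and 0.48 for TNFAIP6 at the edge. TMM factors moved levels by -0.28 to 0.09 (edge minus skin), -0.20 to 0.16 (center minus skin) and -0.09 to 0.14 (edge minus center) on the log2 scale relative to library totals. Depth limits HAS1 most, whose lowest sample, at 0.115 CPM, rested on 2 counts.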

Other observations

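On days 1 to 13 each animal gave 2 wounds on the same day, and some members kept the same order of the 2 wounds in all 3 animals. This was noticed after the values were seen and was not tested. On day 3 HAS1 in the center was 7.18, 42.6 and 80.1 CPM in wound F of animals 1 to 3 and 0.548, 3.64 and 3.07 CPM in wound G. At the edge wound F held 6.70, 15.9 and 13.9 CPM and wound G 0.753, 4.26 and 0.303 CPM, so that wound F was the higher in 3 of 3 animals at both sites. HAS2 had the same order on that day, with 38.0 to 55.6 CPM in wound F and 17.8 to 23.2 CPM in wound G in the center. VCAN in the center was higher in wound L than in wound A in 3 of 3 animals on day 1 (456 to 1029 against 130.4 to 378 CPM) and on day 2 (459 to 1297 against 249 to 531 CPM). The number of states, of 20, in which all 3 animals had the same order was 10 for HAS2, 6 for HAS1, 5 for HMMR, VCAN and CEMIP, and 4 for CD44, TNFAIP6 and HYAL2. Over 14081 genes the mean was 6.23 states and 6.75% of genes had 10 or more, so 7 of the 8 members lay near or below the level over all genes.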
